A study of Mus musculus with 2 samples.

Results

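Luminal cells that carried the human androgen receptor transgene together with its fluorescent reporter were compared between the 2 barcode sets of a single-cell RNA sequencing study of the mouse prostate. Members were selected on measured values. A cell was a member when it held Epcam and Krt8, both epithelial, had a Krt5 value under 1 and no Ptprc, held ARQ, and had an EGFP value of 3 or more. These values are natural logs of 1 plus the share of a cell's molecules scaled to 10000. Of 15742 cells, 7611 were members, 439 of 6332 in barcode set 1 and 7172 of 9410 in barcode set 2.

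All mice were R26 mTmG/hAR:Osr1 Cre/+ on a mixed background of the strains C57BL/6 and 129S1/SvImJ. In these animals Osr1-Cre, which acts in cells that have expressed Osr1 at any time, removes a stop in front of the human androgen receptor (hARtg) in the Rosa26 locus and switches the reporter from membrane Tomato to membrane GFP (mGFP). The features ARQ and EGFP were read as these transgenes by name alone. The labels list 1 library of prostatic intraepithelial neoplasia (PIN), at 6 months of age by the study's text, and 1 of prostatic adenocarcinoma (PCa), at 12 months. No label ties a barcode ending to a tissue, so the sets are called set 1 and set 2 throughout, and tissue, animal, age and library cannot be told apart. With 1 library a side there were no replicates, no test was possible, and all intervals given are 95% intervals of counting error only.

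Luminal cells line the prostate ducts, and under androgen they secrete the proteins of prostatic fluid. In canonical Wnt signalling, beta-catenin enters the nucleus, joins TCF/LEF factors and turns on targets, many of which encode feedback inhibitors of the pathway. MHC class I molecules carry peptides cut by the proteasome to the cell surface, where CD8 T cells read them, and interferons raise the genes of this route.

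The members of set 1 held 13811754 unique molecular identifiers (UMIs, each a captured RNA molecule), with a median of 27847 per cell, and those of set 2 held 162972337, with a median of 17771. The mitochondrial share was 4.84% and 5.41%. Both sets held the luminal keratin and little of most other cell types, with exceptions among basal, fibroblast and red blood cell genes. Krt18, a keratin of simple epithelium, stood at 2508 CPM (UMIs scaled to a total of 1000000) in set 1 and 7680 CPM in set 2, and Cd24a at 1216 and 1292 CPM, while the basal factor Trp63 had 0.87 and 1.90 CPM. The other basal markers, Krt15 and Krt14, stood at 1154 and 70.9 CPM in set 1 and at 15.3 and 18.6 CPM in set 2, so the basal list summed to 1226 and 35.8 CPM, and the part of basal RNA in the differences below was not tested. Leukocyte genes other than Ptprc (6) summed to 7.17 and 7.33 CPM. Of the genes that defined fibroblasts, Col1a1 had 0 UMIs in set 1 and 3.23 CPM in set 2, but Dcn stood at 227 and 235 CPM. The red blood cell gene Hbb-bs stood at 206 and 17.9 CPM. Between the sets, 67 barcode sequences were shared.

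The selection itself left a very different share of each set. From 3121 and 7701 luminal cells without Ptprc, the step to ARQ above 0 kept 1391 and 7443, and the EGFP step kept 439 and 7172. Members had a median of 150 EGFP UMIs in set 1 and 181 in set 2, and of 16 and 26 ARQ UMIs. Just outside the EGFP limit lay cells at 2.990 in set 1 and 2.996 in set 2, and just inside cells at 3.0025 and 3.012. In set 1, 64 cells fell from 2.5 to under 3 and 83 from 3 to under 3.5, against 36 and 84 in set 2. These values chose the members and are given as a description only. Of the features of the rule, summed over the members, Epcam stood at 2145 and 474 CPM, Krt8 at 3576 and 8340 CPM, ARQ at 754 and 1539 CPM and EGFP at 6336 and 10325 CPM.

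**Figure D1:**
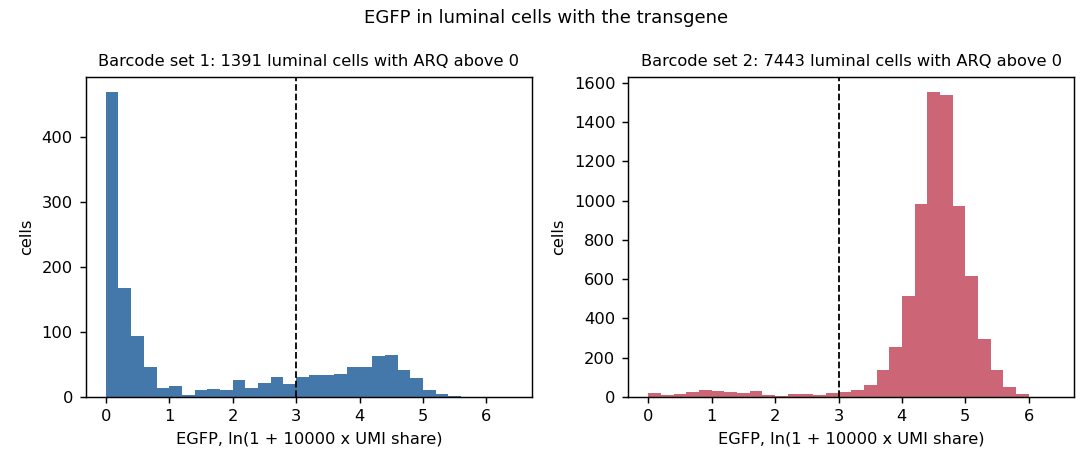
Histograms of EGFP (x axis, natural log of 1 + 10000 times the share of UMIs; y axis, cells) in luminal cells with ARQ above 0, with the limit of 3 dashed. Of 1391 such cells in set 1, most lay under the limit and 439 passed it, while in set 2 a single large peak lay above it and 7172 of 7443 passed.

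Summed over the members, 7189 of 19320 genes had a mean of 10 CPM or more over the sets. A gene is called higher or lower in set 2 when its CPM differed 2-fold or more. By that rule 677 genes (9.42%) were higher and 980 (13.6%) lower, or 1657 (23%) in all, and 152 (2.11%) and 226 (3.14%) differed 8-fold or more. The median log2 ratio of set 2 over set 1 was -0.03 over all 7189 genes. The 15 genes furthest up, ranked on log2 of CPM + 10, held 4 seminal vesicle secretory proteins besides Pate4, 5 alpha-defensins, the Wnt inhibitor Wif1, and Csrp2, Crym, Mt3 and Npl. The 15 furthest down held 6 MHC genes, secreted proteins such as Msmb and Spink5, and the markers Psca and Krt15. Ranked with a pseudocount of 1 instead of 10, 11 of the 15 genes furthest up and 11 of the 15 furthest down were the same.

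**Figure D2:**
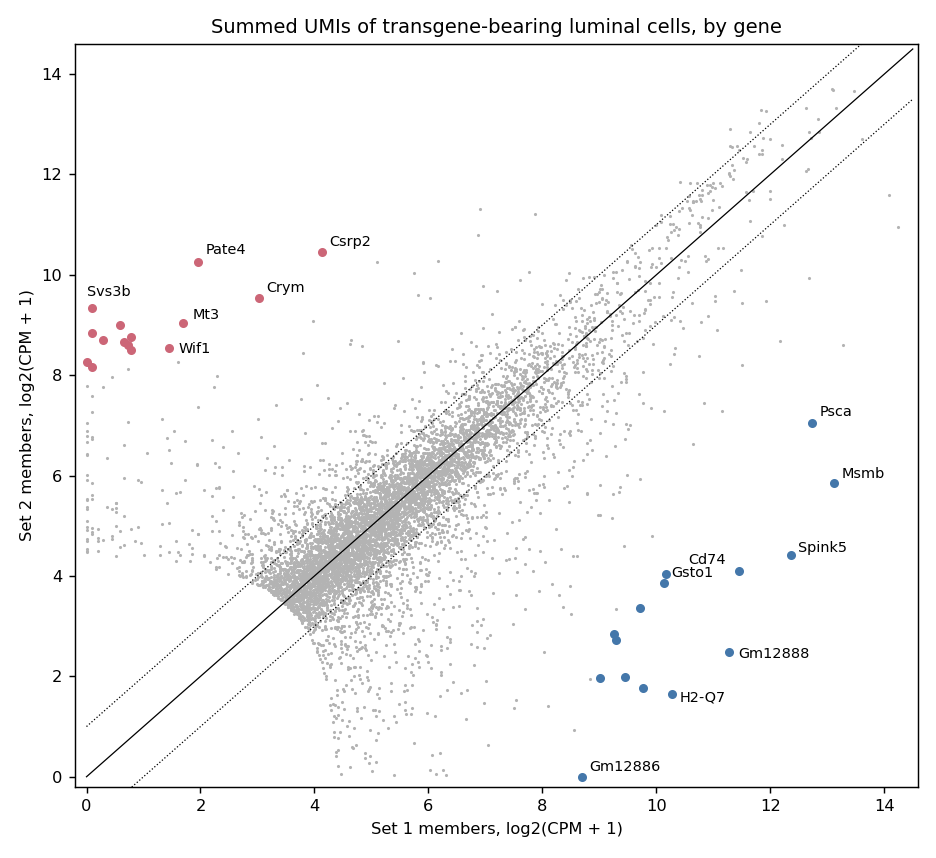
Each point is a gene with a mean of 10 CPM or more, at log2(CPM + 1) summed over the members of set 1 (x axis) and set 2 (y axis). The solid line marks equal levels and the dotted lines a 2-fold difference. Red points are the 15 genes ranked highest in set 2 and blue points the 15 ranked lowest, with most of both far outside the 2-fold lines, as Pate4 (2.90 and 1228 CPM) and Msmb (8911 and 56.8 CPM).

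Wnt feedback and target genes were higher in set 2 almost throughout the list. Of 17 genes, 14 reached 10 CPM, 12 were higher, none was lower, and the median log2 ratio was 3.34. Of all genes, 9.42% were higher. Lgr5, Nkd1, Notum, Rnf43, Znrf3, Apcdd1, Wif1 and Tnfrsf19 were under 10 CPM in set 1 and entered through set 2. The count and median depend on that entry. Axin2, Tcf7, Ccnd1, Bambi, Myc and Sp5 reached 10 CPM in both sets, and of these Myc and Sp5 stayed within 2-fold. Axin2 (chromosome 11, 108917828 to 108950783), the scaffold of the complex that degrades beta-catenin and itself a Wnt target, stood at 12.6 CPM in set 1 and 184 CPM in set 2, a log2 ratio of 3.87 (3.66 to 4.09). After each cell had been thinned at random to 5000 UMIs, 5.81% (3.80 to 8.46%) of set 1 and 52.3% (51.1 to 53.4%) of set 2 members held an Axin2 UMI. Leukocytes (Ptprc above 0 and Epcam at 0), which served as background, gave 2.03% and 2.44%, from 197 and 123 thinned cells. Krt8 was not limited in them, and 364 of 706 in set 1 and 39 of 168 in set 2 held none. The part of epithelial RNA in the leukocyte values was not tested. Unthinned, the members' shares were 25.5% and 80.0%. For this step 430 and 6951 members were deep enough, with median depths of 28424.5 and 18448 UMIs, and the leukocytes had 8319 and 9187 UMIs.

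The secreted and intracellular inhibitors showed the widest differences of the list. Wif1 (chromosome 10, 121034004 to 121100642), which binds Wnt ligands outside the cell, went from 1.74 to 374 CPM (log2 ratio 7.75, 7.18 to 8.39). Notum, an enzyme that strips Wnt ligands of their lipid, went from 1.09 to 86.6 CPM (6.32, 5.596 to 7.156). Nkd1, which acts on Dishevelled, went from 3.91 to 253 CPM (6.02, 5.63 to 6.43). Apcdd1, a membrane-bound inhibitor, gave 0.43 and 20.2 CPM.

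At the receptor, Lgr5, the R-spondin receptor known from intestinal stem cells, had 7 UMIs in set 1 and 4660 in set 2, or 0.51 and 28.6 CPM (log2 ratio 5.82, 4.77 to 7.13). The ubiquitin ligases Znrf3 and Rnf43, which remove Wnt receptors, differed by log2 ratios of 3.44 and 3.24. Downstream, the TCF/LEF factor Tcf7 was at 2.30, the cell cycle gene Ccnd1 at 2.14 (60.0 and 265 CPM), Tnfrsf19 at 2.74 and Bambi at 2.10. The exceptions under the 2-fold limit were Myc, at 0.78 (162 and 278 CPM), and Sp5, at 0.35 (0.16 to 0.55). Below the filter, Lef1 had 0.51 and 10.7 CPM, Nkd2 0.15 and 15.8 CPM, and Ascl2 0.22 and 0.66 CPM. The transcript of beta-catenin itself, Ctnnb1, was level, at 271 and 275 CPM (0.02, -0.03 to 0.07).

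The Wnt difference was carried by most cells. Over the 14 genes, many of which entered through set 2, the median member of set 1 held 1 UMI of 5000 and that of set 2 held 9. In set 1, 0.23% of members lay above the median of set 2. In luminal cells of set 1 with neither ARQ nor EGFP (1091 cells), Axin2 stood at 24.6 CPM and Wif1 at 1.22 CPM, beside 12.6 and 1.74 CPM in the members of set 1. Set 2 held 14 such cells, too few to compare.

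**Figure D3:**
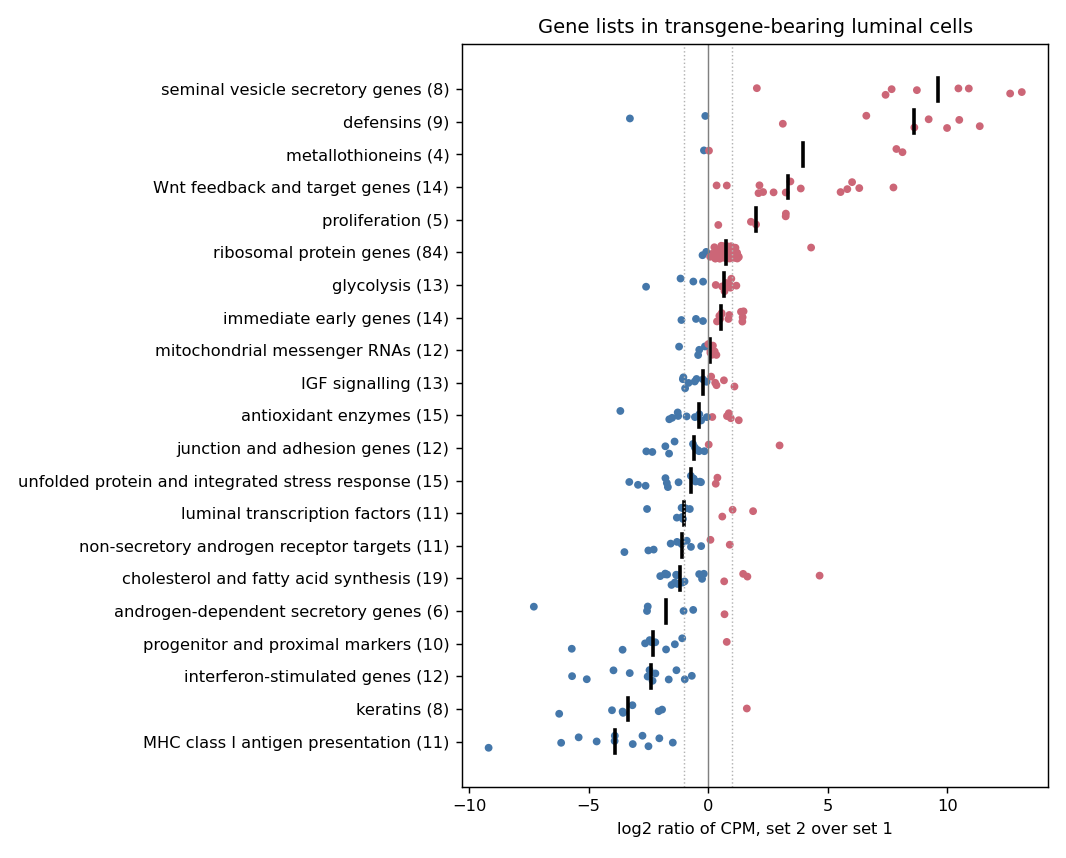
Each point is a gene of a list at its log2 ratio of CPM, set 2 over set 1 (x axis), with the list's name and number of genes on the y axis, the median as a black bar and 2-fold differences dotted. Points above 0 are red and points below 0 blue. Lists run from seminal vesicle genes (median 9.60) at the top to MHC class I genes (median -3.91) at the bottom. Both medians depend on genes that reached 10 CPM through a single set.

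Alpha-defensin transcripts, which encode antimicrobial peptides best known from Paneth cells of the small intestine, were near absent in set 1 and frequent in set 2. Of 21 alpha-defensin features in the table, 13 reached 10 CPM, all through set 2 alone. Gm15308, named Defa32 by RefSeq, had 7 UMIs in set 1 and 83158 in set 2, or 0.51 and 510 CPM (log2 ratio 9.98, 8.93 to 11.29). Defa20 gave 0.72 and 432 CPM (9.22, 8.34 to 10.28), Gm10104 (Defa35) 0.65 and 385 CPM, Gm15315 (Defa34) 0.72 and 360 CPM, and Gm21002 (Defa33) 0.07 and 284 CPM. Defa22 had 0 UMIs in set 1 and 221 CPM in set 2, and Defa24 0 UMIs and 85.6 CPM. These genes lie in an array on chromosome 8 and are near-identical copies, so the split of UMIs between copies is uncertain and their sum is the firmer value. In thinned cells the 13 genes together gave a UMI in 0.70% (0.14 to 2.03%) of set 1 and 93.0% (92.4 to 93.6%) of set 2 members, with medians of 0 and 7 UMIs. Because the 13 genes entered through set 2, these shares depend on that entry. In leukocytes of set 2 Gm15308 stood at 56.6 CPM, and the part of free RNA in the members' share was not tested.

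Because copies moved together, the bases before their start sites are shown. They come from RefSeq on GRCm38.p6, which has the coordinates of mm10, plus strand, and run for 150 bases up to the start. Capitals mark ATCAAAG, the core sequence that TCF/LEF factors bind, searched on both strands.

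Defa20, chr8:21509108-21509257: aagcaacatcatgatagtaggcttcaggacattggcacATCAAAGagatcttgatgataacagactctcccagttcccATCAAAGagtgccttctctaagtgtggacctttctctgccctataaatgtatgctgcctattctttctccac

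Defa21, chr8:21025395-21025544: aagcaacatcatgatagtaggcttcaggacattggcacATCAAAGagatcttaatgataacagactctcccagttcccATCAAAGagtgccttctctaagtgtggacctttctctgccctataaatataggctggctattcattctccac

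Over the 250 bases before the start, Defa22 was identical to Defa21, and Defa20 was equal at 245 of 250 positions. Of the alpha-defensin genes that reached 10 CPM, 8 had a promoter entry, all 8 held ATCAAAG within those 250 bases and 6 held it 2 or more times. Copies under 10 CPM held it too, Defa23 2 times and Defa28 1 time, so that 10 of 11 copies with an entry did. Among all 32851 promoters, 3.21% held it and 0.0822% held it 2 or more times, and in the Wnt list 2 of 10 did. The copies are near-identical and not independent cases, and a match is a description of letters only.

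The beta-defensins did not follow. Defb1 was level at 3142 and 2886 CPM (log2 ratio -0.12), Defb42 was higher (2.61 and 22.7 CPM), and Defb50, among the most abundant transcripts of set 1, was lower, at 19307 CPM in set 1 and 1994 CPM in set 2 (-3.28, -3.28 to -3.27). Over the 9 genes of the table named Defa or Defb that reached 10 CPM, 7 were higher and 1 was lower, with a median of 8.62 in which 3 genes with 0 UMIs in set 1 stand at a floor of 3 UMIs. The 6 Defa genes among them reached 10 CPM through set 2 alone, so this count and median are no sign of how the family behaved, and with a minimum of 1 CPM the median was 3.78.

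Seminal vesicle secretory genes encode proteins of the copulatory plug and are normally transcribed in the neighbouring gland. The 8 that reached 10 CPM were all higher in set 2, with a median of 9.60, where 9.42% of all genes were higher. All but Ceacam10 (18.1 and 74.2 CPM) reached 10 CPM through set 2 alone. This count and median are therefore no sign of how the family behaved. Pate4 (chromosome 9, 35607093 to 35611885) stood at 2.90 and 1228 CPM (log2 ratio 8.73, 8.28 to 9.21). Svs3b had 1 UMI in set 1 and 643 CPM in set 2, Svs3a 1 UMI and 459 CPM, and Svs4 3 UMIs and 415 CPM (10.90, 9.35 to 13.18). Svs5 had no UMI in set 1 and 307 CPM in set 2, at least 1414-fold higher against a floor of 3 UMIs.

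Unlike the Wnt genes, these transcripts sat in a minority of cells. The 10% of set 2 members with the highest counts held 91.6% of the UMIs of the list, against 23.4% for the Wnt list and 47.3% for the alpha-defensins. A UMI of the list was seen in 6.05% of thinned members of set 1 and 47.4% of set 2. For Pate4 alone the shares were 1.16% (0.38 to 2.69%) and 29.1% (28.0 to 30.2%) thinned, and 2.28% and 49.2% unthinned. Thinned leukocytes of set 2 held a Pate4 UMI in 18.7% (12.2 to 26.7%) and those of set 1 in 0% (0 to 1.86%), and how far free RNA in the droplets adds to the members' share was not tested. With 10 or more UMIs of 5000 as the limit, 2793 set 2 members (40.2%) were rich in alpha-defensins and 953 (13.7%) in seminal vesicle genes. Both limits were passed by 390 cells, which were 13.96% of the first and 40.9% of the second.

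The set 2 members rich in seminal vesicle genes alone also differed in the other lists. These 563 cells had a median of 4 Wnt UMIs and 62 MHC class I UMIs of 5000. The 2403 cells rich in alpha-defensins alone had 10 and 13, and the 3595 cells rich in neither had 9 and 12. Leaving out every cell with a seminal vesicle UMI kept 355 members of set 1 and 1798 of set 2, and gave 718 genes higher and 1054 lower.

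**Figure D4:**
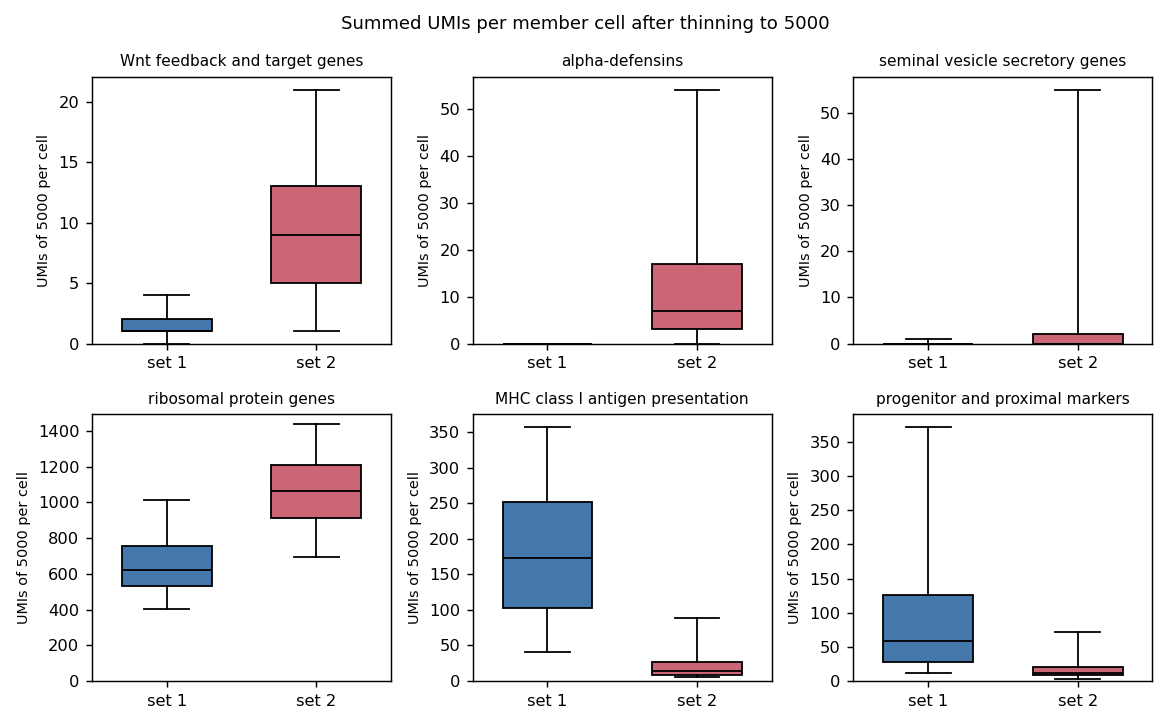
Summed UMIs per member cell after thinning to 5000 UMIs (y axis, with its own scale in each panel) for 6 lists in set 1 (blue, 430 cells) and set 2 (red, 6951 cells). Lines mark medians, boxes the middle 50% of cells and whiskers the 5th and 95th percentiles. The boxes of the sets do not overlap for Wnt, alpha-defensin, ribosomal protein, MHC class I and progenitor lists, whereas the seminal vesicle list has a median of 0 in both sets and a long upper whisker in set 2. All alpha-defensin genes, and most Wnt and seminal vesicle genes, reached 10 CPM through set 2 alone. Some MHC class I genes did so through set 1 alone.

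Csrp2, Crym, Mt3 and Npl completed the top 15. Csrp2 (chromosome 10, 110920176 to 110939514), a LIM-domain protein known from smooth muscle, went from 16.6 to 1413 CPM (log2 ratio 6.41, 6.23 to 6.61). It was seen in 6.05% (3.99 to 8.73%) and 96.2% (95.7 to 96.6%) of thinned members, in 26.2% and 98.1% of unthinned members, and in 7.11% and 25.2% of thinned leukocytes. Of the smooth muscle genes, Acta2 stood at 0.29 and 2.66 CPM and Myh11 at 0.07 and 0.13 CPM. Crym, which binds thyroid hormone, went from 7.17 to 747 CPM (6.70, 6.420 to 7.003), and Npl, a lyase of sialic acid, from 0.58 to 404 CPM (9.44, 8.47 to 10.66). The metal-binding Mt3, known from brain, went from 2.24 to 525 CPM (7.87, 7.37 to 8.43), and Mt4, known from squamous epithelium, from 0.29 to 80.9 CPM. The broadly expressed Mt1 and Mt2 were level, at -0.18 and 0.03, so 2 of 4 metallothioneins were higher, where 9.42% of all genes were. Mt3 and Mt4 reached 10 CPM through set 2 alone, so this count is no sign of how the family behaved.

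The MHC class I route was lower in set 2 at each step that was measured. Of 12 genes, 11 reached 10 CPM, all 11 were lower, and the median log2 ratio was -3.91, beside -0.03 over all genes. The heavy chain H2-K1 (chromosome 17, 33996012 to 34000619) stood at 9903 CPM in set 1 and 390 CPM in set 2 (-4.67, -4.68 to -4.65), and H2-D1 stood at 6584 and 979 CPM. The light chain B2m (chromosome 2, 122147687 to 122153082) was at 17401 and 3078 CPM (-2.50, -2.51 to -2.49). The immunoproteasome subunits Psmb8 and Psmb9 were at 360 and 8.43 CPM and at 126 and 1.77 CPM. The peptide transporters Tap1 and Tap2 had log2 ratios of -3.91 and -3.16, and their partner Tapbp -1.48. Of the nonclassical genes, H2-Q7 and H2-Q10 were among the 15 lowest, H2-Q7 at 1240 and 2.13 CPM and H2-Q10 at 865 and 2.39 CPM. Class I genes are near-identical in places and differ between strains, so the counts of single heavy chains are less certain than those of B2m, Tap1 or Psmb8.

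The difference was found in most cells. The median member held 172.5 UMIs of the class I list in set 1 and 14 in set 2, and 0.69% of set 2 members lay above the median of set 1. H2-K1 was seen in 100% of thinned members of set 1 and 77.4% of set 2.

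MHC class II genes followed. Cd74, the invariant chain, stood at 2785 CPM in set 1 and 16.1 CPM in set 2 (-7.43, -7.49 to -7.38), and H2-Ab1, H2-Aa and H2-Eb1 at 627, 611 and 516 CPM in set 1 and at 5.58, 6.16 and 2.90 CPM in set 2. A class II UMI was present in 67.7% (63.0 to 72.1%) of thinned set 1 members and 2.71% (2.34 to 3.11%) of set 2. For Cd74 alone the shares were 61.2% and 1.53% thinned and 82.5% and 4.32% unthinned, and in fibroblasts, which should lack it, 42.7% (31.3 to 54.6%) in set 1 and 6 of 75 cells in set 2, thinned. How far free RNA in the droplets of set 1 adds to the members' Cd74 was not tested. All 6 leukocyte genes had UMIs in both sets, each at 4.36 CPM or less, and they went different ways under sums of 7.17 and 7.33 CPM. Lyz2 stood at 0.87 and 4.36 CPM, whereas Cd3e stood at 1.16 and 0.04 CPM, Coro1a at 1.45 and 0.38 CPM and Laptm5 at 1.74 and 0.69 CPM, in the direction of Cd74. The part of leukocyte RNA in the class II values was not tested. In set 1 luminal cells without ARQ and EGFP, Cd74 stood at 3673 CPM.

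Interferon-stimulated genes were lower as well. Of 14 genes 12 reached 10 CPM, 10 were lower, none was higher and the median was -2.39. Gbp2, an interferon-induced GTPase, stood at 68.0 and 1.31 CPM (-5.69, -5.92 to -5.48), Ifit3 at 30.5 and 0.90 CPM, Ifit1 at 69.4 and 7.14 CPM (-3.28), and Irf7, a factor that turns on interferon genes, at 123 and 21.3 CPM. Bst2 and Ifi27 stayed within the 2-fold limit, at -0.69 and -0.98. The bases before the start of Ifit1 and Gbp2 are shown because both held the interferon-stimulated response element, searched as GAAA, any 2 bases and GAAA on both strands. Capitals mark it, here in reverse complement, as TTTC, 2 bases and TTTC. They are from the same RefSeq build, plus strand.

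Ifit1, chr19:34640760-34640838: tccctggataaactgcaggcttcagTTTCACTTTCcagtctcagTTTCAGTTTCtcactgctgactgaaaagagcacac

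Gbp2, chr3:142620579-142620638: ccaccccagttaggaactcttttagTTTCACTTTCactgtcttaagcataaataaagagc

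In the interferon list 6 of 10 genes with a promoter entry held the element within 250 bases before the start, namely Isg15, Ifit1, Ifit3, Rsad2, Bst2 and Gbp2, against 2.98% of all promoters. Among class I genes 2 of 10 did, B2m and H2-T23, and in the Wnt list 0 of 10 did. Of these, Bst2 was within the 2-fold limit.

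Genes of luminal function were mostly lower in set 2. Among 6 androgen-dependent secretory genes 4 were lower and none higher, with a median of -1.78, where 13.6% of all genes were lower. Msmb (chromosome 14, 32142023 to 32158327), a major protein of prostatic fluid, stood at 8911 and 56.8 CPM (-7.29, -7.32 to -7.26), Pbsn at 743 and 129 CPM (-2.53) and Azgp1 at 957 and 162 CPM (-2.56). Sbp, at -0.63, and Sbpl, at 0.68, stayed within the limit. For Msmb the thinned shares were 64.7% and 2.53% of members, 86.3% and 7.14% unthinned, and 37.1% and 3.25% in thinned leukocytes. Tgm4 was at 873 and 428 CPM (-1.03). In cells with an EGFP value from 3 to under 4 (179 and 519 cells) the list looked different, with a median of 0.26, Tgm4 at 1.01, Sbp at 2.15, Sbpl at 3.74 and Pbsn at -0.48. At EGFP of 4 or more, Sbpl was at -0.40.

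Of the non-secretory androgen receptor targets 11 of 15 reached 10 CPM, 6 were lower, none was higher, and the median was -1.11. Of all genes, 13.6% were lower. Fkbp5, a chaperone of steroid receptors, stood at 259 and 53.3 CPM (-2.28, -2.34 to -2.23), Pmepa1 at 247 and 21.8 CPM (-3.51) and Tmprss2, a surface protease, at 55.7 and 22.6 CPM (-1.30). In cells with EGFP from 3 to under 4, Pmepa1 (-0.88) and Tmprss2 (-0.49) were within 2-fold. Acsl3 was level, at 0.09. Osr1 itself had 0.29 and 0.37 CPM.

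Luminal transcription factors went both ways. Of 11 measured, 6 were lower and 2 higher, with a median of -1.01, where 13.6% and 9.42% of all genes were. Hoxb13, a homeobox factor of the prostate, stood at 165 and 28.1 CPM (-2.56), and Runx1 was at -1.31, while Gata2 was higher, at 18.8 and 69.1 CPM (1.88, 1.70 to 2.06), with Grhl2 at 1.02. Foxa1, a pioneer factor for the androgen receptor, was at 139 and 72.1 CPM (-0.95).

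Most keratins and progenitor markers were lower. Of all genes, 13.6% were lower, to be set beside the counts of both lists. Krt18, the partner of Krt8, was higher (1.62, 1.60 to 1.63), and the other 7 of 8 keratins were lower. Krt19 stood at 2910 and 693 CPM, Krt7 at 439 and 48.8 CPM, Krt4, a keratin of proximal and urethral luminal cells, at 139 and 11.6 CPM, and Krt15, a basal marker, at 1154 and 15.3 CPM. Krt14, also basal, was at 70.9 and 18.6 CPM, with a sign that turned to 0.64 among cells with EGFP from 3 to under 4. Of the progenitor and proximal markers 9 of 10 measured were lower, with a median of -2.29, and Itga6 was at 0.78. Of these markers, Ppp1r1b (40.8 and 6.55 CPM) entered through set 1 alone. Psca, a surface protein of proximal cells, stood at 6816 and 131 CPM (-5.71, -5.73 to -5.69), and Ly6a (Sca-1) at 3868 and 709 CPM. Psca was present in 60.9% and 10.6% of thinned members, in 80.9% and 21.5% of unthinned members, and in 16.8% and 1.63% of thinned leukocytes. When cells with a Psca value of 2 or more were left out, 234 and 6970 members remained, and the medians were -1.40 for the progenitor list and -2.03 for keratins.

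Other genes of the lowest 15 encode secreted inhibitors and an enzyme. Spink5, a serine protease inhibitor of epithelia, stood at 5258 and 20.2 CPM (-8.02, -8.07 to -7.97), Spink11 at 703 and 2.98 CPM, and Wfdc3 at 838 and 9.35 CPM. In set 1 the 10% of members with the highest counts held 69.7% of Spink5 UMIs, and the gene was seen in 35.8% of thinned members against 0.91% in set 2 (49.2% and 2.16% unthinned, 3.55% and 0.81% in thinned leukocytes). The glutathione transferase Gsto1 was at 1118 and 13.6 CPM. Gm12888 was at 2484 and 4.57 CPM, and its neighbour on chromosome 4, Gm12886, had 5713 UMIs in set 1 and 0 in set 2, at least 22470-fold lower, with 96.6% of its set 1 UMIs in such a 10% of members.

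Ribosomal protein genes shifted by a small amount together, with 82 of 84 above 0, 12 higher, none lower and a median of 0.73. Over all genes, 9.42% were higher and the median was -0.03. Per cell the ribosomal protein genes took a median of 623.5 of 5000 UMIs in set 1 and 1062 in set 2. Rpl29 stood apart from the rest, at 52.9 and 1046 CPM (4.30, 4.20 to 4.41). Of 13 proliferation genes 5 reached 10 CPM, of which 4 were higher, with a median of 2.00, where 9.42% of all genes were higher. The 4 were Birc5, Ube2c, Tyms and Rrm2, all under 10 CPM in set 1 (2.90, 4.92, 9.27 and 5.58 CPM). They entered through set 2, so this count and median are no sign of how the list behaved. Ube2c stood at 4.92 and 46.5 CPM and Pcna at 33.3 and 44.6 CPM, and Mki67, below the filter, at 1.88 and 16.5 CPM. Leaving out cells with an Mki67 or Top2a UMI, which kept 416 and 6133 members, brought that median to 0.63.

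Immediate early genes had 4 of 14 higher and 1 lower, with a median of 0.55, where 9.42% and 13.6% of all genes were. Atf3, a stress-induced factor, stood at 1360 and 3690 CPM (1.44), Egr1 at 342 and 954 CPM (1.48), Fosb at 1.43 and Nr4a1 at 1.37, while Dusp1, a phosphatase, was lower, at 365 and 168 CPM (-1.12). Such genes also respond to tissue dissociation, whose part was not tested.

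IGF signalling, a pathway the study asked about, was close to level between the sets in the genes that reached 10 CPM. The study's own IGF1 evidence came largely from basal cells with and without hARtg, tissue RNA and protein staining, which are other comparisons. Of 23 genes 13 reached 10 CPM, 1 was higher and 2 were lower and the median was -0.22, which became 0.12 at a minimum of 1 CPM. These counts were near the shares over all genes, 9.42% higher and 13.6% lower. Below the filter, Igfbp3 had 0.58 and 11.6 CPM, Igfbp4 0.15 and 6.52 CPM, and Igfbp6 0.29 and 3.34 CPM. Their set 1 values rest on 8, 2 and 4 UMIs. Irs1 had 1.52 and 7.58 CPM, while Grb10 (2.03 and 0.63 CPM) and Socs2 (10.5 and 6.25 CPM) went the other way. The receptor Igf1r stood at 71.2 and 90.5 CPM (0.35, 0.25 to 0.44) and the kinase Mapk13 at 216 and 340 CPM (0.66). The lower genes were the adaptor Irs2, at 33.7 and 16.1 CPM (-1.06), and the kinase Jak2, at 64.7 and 31.5 CPM (-1.04), and the higher gene was the factor Foxo3 (1.10).

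In metabolism, the counts stand beside 13.6% of all genes that were lower and 9.42% that were higher. Cholesterol and fatty acid synthesis had 11 of 19 genes lower and 3 higher, with a median of -1.19. Among the lower genes were Sqle (57.6 and 16.5 CPM, -1.81) and Idi1 (-1.72), both of sterol synthesis. The higher genes were Elovl6, which lengthens fatty acids, at 1.96 and 49.4 CPM (4.66, 4.12 to 5.26), Acly (1.64), and the sterol enzyme Nsdhl at 16.7 and 46.1 CPM (1.46), while Sc5d, also of sterol synthesis, was at -0.18. Glycolysis had counts near the shares of all genes, with 1 of 13 higher, Ldha (298 and 673 CPM, 1.18), and 2 lower. The lower were the hexokinase Hk2 (-2.60) and the glucose transporter Slc2a1 (-1.16), and the list median was 0.66. Antioxidant enzymes had 1 of 15 higher, Hmox1 (1.28), and 5 lower, such as Gpx2 (53.2 and 4.17 CPM), with a median of -0.37. Mitochondrial messenger RNAs were level (median 0.09), and 1 of 12, mt-Nd4l, was lower.

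Of 15 genes of the unfolded protein and integrated stress response 7 were lower and none higher, with a median of -0.73. Of all genes, 13.6% were lower. The 7 of the list were chaperones or folding helpers, led by the disulfide isomerase Pdia6, at 2917 and 296 CPM (-3.30, -3.32 to -3.28). Pdia4 was at -2.94 and Sdf2l1 at -2.62, with Hspa5 at 4827 and 2042 CPM (-1.24). The other 8 stayed within 2-fold, with Atf4 (0.39) and the co-chaperone Dnajb9 (0.32) above 0 and Xbp1 (-0.35), Ddit3 (-0.30), Herpud1 (-0.62), Trib3 (-0.61), Asns (-0.53) and Chac1 (-0.73) below it.

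Junction genes had 5 of 12 lower and 1 higher, where 13.6% and 9.42% of all genes were. E-cadherin, Cdh1, stood at 408 and 118 CPM (-1.79, -1.84 to -1.75), Cldn7 at 873 and 173 CPM, Cldn10 at 725 and 121 CPM and Ocln at 108 and 34.8 CPM. Vim, an intermediate filament of mesenchymal cells, was higher, at 2.61 and 20.6 CPM, beside fibroblast genes other than Dcn that summed to little, as Col1a2 at 0.07 and 3.12 CPM, and the part of fibroblast RNA in it was not tested. Dcn was level, at 227 and 235 CPM. The hemoglobin genes Hbb-bs and Hba-a1, from red blood cells, were lower in set 2, at 206 and 17.9 CPM and at 62.1 and 4.33 CPM.

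The same ratio was then formed in other kinds of cell, to see which differences between the sets were also found outside the members. The other kinds were basal cells (Krt5) with ARQ and an EGFP value of 3 or more (388 and 150 cells), luminal cells with EGFP under 3 (2657 and 440), leukocytes (706 and 168) and fibroblasts (106 and 186). Of the genes higher in members and measured in both kinds, 65.3% were also 2-fold higher in transgene-bearing basal cells, which was 54.9% of the genes higher there. The shares were 20.9% in luminal cells with low EGFP, 24.7% in leukocytes and 21.7% in fibroblasts. Of all genes measured there, 9.82%, 3.39%, 9.41% and 7.16% were 2-fold higher in these kinds. For lower genes the shares were 35.04% in basal cells, 29.1% in luminal cells with low EGFP, 31.5% in leukocytes and 16.5% in fibroblasts, where 5.39%, 6.03%, 28.0% and 3.504% of all genes measured were lower.

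Axin2 differed in size between these kinds of cell. It had a log2 ratio of 4.52 (4.03 to 5.05) in basal cells with the transgene, at 5.43 and 125 CPM, but -0.21 (-0.47 to 0.04) in luminal cells with EGFP under 3, at 22.8 and 19.7 CPM, and -0.01 (-1.10 to 0.98) in leukocytes. In fibroblasts it was 1.45 (0.39 to 2.64), from 10 and 32 UMIs. Wif1 was at 0.28 and 513 CPM in those basal cells, at 1.39 and 28.1 CPM in luminal cells with EGFP under 3 and at 1979 and 1588 CPM in fibroblasts. Nkd1 had log2 ratios of 6.08, 2.82 and -0.47 in the same order. The difference between these ratios was not tested.

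The MHC genes did not all behave alike across kinds of cell. B2m had log2 ratios of -2.46 in basal cells, -1.95 in luminal cells with low EGFP, -1.48 in fibroblasts and 0.21 (0.16 to 0.26) in leukocytes, and H2-K1 of -3.34, -2.89, -1.98 and -0.35. H2-Q7 was lower in each, at -6.53, -4.06, -3.48 and -2.15. Cd74 was lower in basal cells (-5.64), and in leukocytes, which make it, it was 0.58 (6461 and 9677 CPM).

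The genes of secreted proteins at the top of the list were also seen outside the members in set 2. Pate4 stood at 477 CPM in basal cells with the transgene, 41.7 CPM in leukocytes and 77.6 CPM in fibroblasts of set 2, and had 0 UMIs in all of these in set 1. Gm15308 had 515, 56.6 and 34.4 CPM in the same cells of set 2, and 3, 0 and 0 UMIs in set 1. How far free RNA in the droplets set these levels was not tested.

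**Figure D5:**
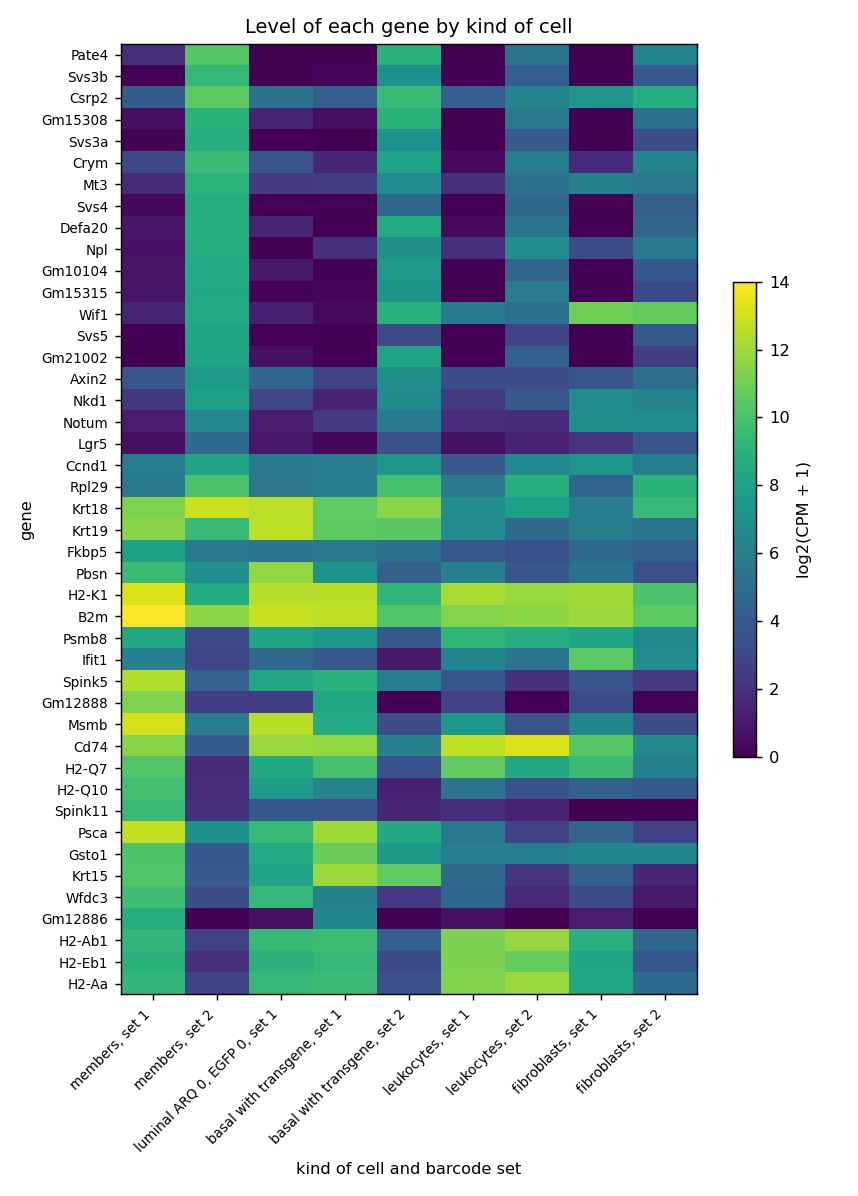
Level of 44 genes (rows) as log2(CPM + 1), from 0 in dark blue to 14 in yellow, in 9 pairings of cell kind and barcode set (columns). Pate4 stood at 1228 CPM in members of set 2, 477 CPM in basal cells with the transgene and 41.7 CPM in leukocytes of set 2, and at 2.90 CPM in members of set 1. Wif1 differs from the other genes at the top in being high in fibroblasts of both sets (1979 and 1588 CPM), and H2-K1 is lowest in the members of set 2 (390 CPM) among these columns.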

How the data were processed

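Cells from 1 PIN and 1 PCa tissue were dissociated, captured with 10x Chromium 3' chemistry and sequenced. Per the submitters' notes, reads were counted with Cell Ranger 3.1.0 on mm10, to which the study's methods add the hARtg and mGFP sequences. The deposited table holds, for 19320 features and 15742 cells, natural log values that the authors made from UMI counts scaled to 10000 per cell. Whole UMI counts were recovered from them, with 100% of values within 0.001 of a whole number. The number of cells the methods give for PIN equals the barcodes of set 1, and that for PCa is slightly above set 2, but groups come from labels alone, so the sets were left unnamed.

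UMIs were summed over member cells and divided by the total to give CPM. Intervals (95%) are exact Poisson, conditional binomial or Clopper-Pearson. Genes needed a mean of 10 CPM, and counts of 0 were set to a floor of 3 UMIs. Groups under 50 cells were not compared, and planned groups below that were replaced by wider ones. Shares of cells were taken after thinning to 5000 UMIs, and scripts were tested on simulated data. Named genes were the 15 highest and 15 lowest on log2 of CPM + 10, all genes of the lists, the features of the rule, Osr1 and Pbsn, and some named genes are not reported here. Other genes named from the marker lists serve only as checks. The members and lists were chosen with earlier results of these data known. Doublets were kept in the main values and left out (Scrublet score over 0.25) as an alternative. Feature names that occur more than once stayed in totals and were never named. Of 424 named genes 404 matched a RefSeq symbol. Software was Python 3.11.15, numpy 2.4.6, scipy 1.17.1, pandas 2.3.3, scanpy 1.11.5 and matplotlib 3.10.9.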

Additional observations from a re-analysis of the deposited data

How the results depend on the processing

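Main counts were 677 genes higher and 980 lower in set 2. A minimum mean of 1 CPM gave 1478 and 2077, and one of 50 CPM gave 251 and 369, by construction of the filter. The other alternatives gave 594 to 732 higher and 712 to 1054 lower. Lists with a median 2-fold higher went from 5 to 8 at 1 CPM and to 3 at 50 CPM, and lists with a median 2-fold lower from 10 to 6 among cells with EGFP from 3 to under 4 (179 and 519 cells). In those cells the sign turned for the secretory list (median 0.26), Tgm4 (1.01) and Krt14 (0.64), and the cause was not tested. Pbsn (-0.48), Pmepa1 (-0.88), Tmprss2 (-0.49), Runx1 (-0.56), Krt18 (0.89), Ldha (0.64), Slc2a1 (-0.68), Irs2 (-0.85), Nsdhl (0.77), Grhl2 (0.78), Atf3 (0.85), Nr4a1 (0.90), mt-Nd4l (-0.87) and Hba-a1 (-0.16) were within 2-fold in those cells. Ube2c was at 0.90 without cells holding Mki67 or Top2a, the metallothionein median was 0.03 at 50 CPM and the androgen receptor target median was -0.86 after thinning. Dusp1, Jak2, Foxo3 and Hmox1 also crossed the 2-fold limit in at least 1 alternative. The Wnt median ran from 2.97 to 3.66 and the MHC class I median from -4.23 to -2.64. Of 166 named genes past 2-fold, 129 stayed past it and 164 kept their sign in every alternative run. Alternatives that left out cells with Psca of 2 or more (655 higher, 926 lower) or with a seminal vesicle UMI (718 and 1054) were chosen after seeing the data. No paired analysis was possible because there was a single library on either side.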

Other observations

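Of 5172 genes measured in members, transgene-bearing basal cells, luminal cells with low EGFP, leukocytes and fibroblasts, 14 differed 4-fold or more in the same direction in all 5 kinds of cell. The 10 higher in set 2 were Gm8797, Gm8730, Rpl29, Eif3j2, Gm5900, Pate4, Defa20, Gm10260, Npl and Gm15308, and the 4 lower were H2-Q7, Msmb, H2-Q6 and Gdpd3. In members the log2 ratio of Gm10260 was 9.43, that of Eif3j2 4.58 and that of Gdpd3 -3.17. These genes were picked for their pattern, which carries no test.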
